A study of Mus musculus with 7 samples.

Results

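The genes described here are 8 that have been reported as targets of DOT1L in leukaemia with fusions of KMT2A (MLL): Myc, Cdk6, Bcl2, Mef2c, Jmjd1c, Zeb2, Eya1 and Runx2. Their H3K79me2 was followed in macrophages. Members were all regions of the deposited read-count table that overlap the RefSeq span of one of the 8 genes, 69 of 29397 regions, and each gene is represented by its region of highest mean count. The study measured H3K79me2, the dimethylated form of lysine 79 on histone H3, by ChIP-seq (sequencing of immunoprecipitated chromatin) in macrophages grown from the bone marrow of C57BL/6 mice for 7 to 8 days with L929-conditioned medium as the source of M-CSF. 3 cultures were given 1 µM SGC0946, a small-molecule inhibitor of the methyltransferase DOT1L, during differentiation, and 3 were given the solvent DMSO. The design text calls the 3 libraries of each group biological replicates, the mice are described in the protocol as WT and KO with no assignment to samples, and the input sample was not used here.

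DOT1L is the enzyme that methylates H3K79, and it does so over the transcribed part of active genes, in company with elongation factors. In leukaemia with a KMT2A fusion, the fusion partner brings DOT1L to genes such as Hoxa9, Meis1 and Mef2c, whose H3K79 methylation then spreads broadly and whose transcription depends on it. Several of these genes also have roles in normal myeloid cells: Zeb2 and Mef2c are transcription factors of mononuclear phagocytes and their precursors, and Myc and Cdk6 serve growth and the cell cycle.

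DMSO libraries held 16.7 to 19.5 M reads in regions and SGC0946 libraries 2.95 to 3.13 M, so that SGC0946 totals were 17.1% of DMSO totals. Results are given on 2 scales. Unscaled counts are the reads as deposited. A share is the fraction of its library's reads, and a change of share is a change relative to the whole library's fall. As the material is bulk chromatin, fewer cells with the mark and less mark per cell cannot be told apart. The macrophage label held by its markers: 8 of 8 macrophage genes, among them Csf1r, Adgre1 and Spi1, had a region, with 84.5 to 339 DMSO reads per kb. Of 26 genes of other cell types, 6 had a region. Over all coding genes 43.4% had one. Lck, Mpo, Prtn3, Klf1 and Kit had 2.67 to 16.7 DMSO reads per kb, and Zbtb46, whose region overlaps 3 coding genes, had 124. The summed level of the macrophage genes was 957 to 989 reads per M with DMSO and 1113 to 1150 with SGC0946. Of these 8 genes Cd68, whose region overlaps 3 coding genes, rose in share (log2 0.73), Mertk fell (log2 -0.57) and 6 did not pass. The granulocyte genes summed to 0.205 to 0.657 reads per M with DMSO and 3.73 to 7.34 with SGC0946, the T-cell genes to 0.051 to 0.12 and 1.02 to 2.55, the erythroid to 0.177 to 0.307 and 0.998 to 3.05, the progenitor to 0.41 to 0.538 and 0.998 to 3.39, and the dendritic to 99.7 to 102.5 and 72.5 to 76.9. The granulocyte, T-cell, erythroid and progenitor sums rest on few reads. Mean counts with DMSO and SGC0946 were 3.67 and 9 for Mpo, 3.33 and 6.67 for Prtn3 and 1.33 and 5.67 for Lck. These 3 passed the count filter through their SGC0946 libraries alone, so that they had to differ in share. Klf1 (4 and 6) and Kit (8.33 and 6) were not tested. B-cell and stromal genes had no region. The part of other cells in the results was not tested.

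The sequences around 4 annotated starts are shown, chosen by what part of the DMSO reads their genes kept. No relation of sequence to the fraction kept was tested. They are the upstream and the downstream RefSeq start of Jmjd1c, which lie in regions that kept different fractions of their DMSO reads. By their regions of highest mean count, Zeb2 kept the most among the 8 genes and Cdk6 the least, and their outermost starts complete the 4. Each runs from 250 bases before to 50 bases after the start, on GRCm38.p6 (the assembly that mm10 names), written 5′ to 3′ on the gene's strand, with CG dinucleotides in capitals.
Jmjd1c upstream start, chr10:67126838-67127137, plus strand: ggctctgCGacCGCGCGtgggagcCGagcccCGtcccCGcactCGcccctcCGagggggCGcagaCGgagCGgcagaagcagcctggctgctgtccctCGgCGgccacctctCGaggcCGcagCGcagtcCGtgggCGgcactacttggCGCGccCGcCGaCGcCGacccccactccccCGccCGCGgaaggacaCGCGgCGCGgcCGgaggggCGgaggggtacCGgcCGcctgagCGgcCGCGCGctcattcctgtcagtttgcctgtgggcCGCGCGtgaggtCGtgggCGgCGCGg
Jmjd1c downstream start, chr10:67185500-67185799, plus strand: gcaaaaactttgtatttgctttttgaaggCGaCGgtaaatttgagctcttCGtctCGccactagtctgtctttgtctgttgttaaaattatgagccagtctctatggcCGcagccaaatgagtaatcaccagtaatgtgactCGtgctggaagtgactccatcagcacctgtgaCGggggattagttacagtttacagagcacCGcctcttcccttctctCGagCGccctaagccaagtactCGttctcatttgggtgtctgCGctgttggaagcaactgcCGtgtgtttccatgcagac
Zeb2 outermost start, chr2:45117393-45117692, minus strand: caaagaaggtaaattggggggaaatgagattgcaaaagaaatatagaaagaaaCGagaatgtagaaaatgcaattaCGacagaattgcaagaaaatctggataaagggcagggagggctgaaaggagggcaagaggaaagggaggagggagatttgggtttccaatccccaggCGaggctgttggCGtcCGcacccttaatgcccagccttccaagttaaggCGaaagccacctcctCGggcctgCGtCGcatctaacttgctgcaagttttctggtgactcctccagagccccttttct
Cdk6 start, chr5:3343643-3343942, plus strand: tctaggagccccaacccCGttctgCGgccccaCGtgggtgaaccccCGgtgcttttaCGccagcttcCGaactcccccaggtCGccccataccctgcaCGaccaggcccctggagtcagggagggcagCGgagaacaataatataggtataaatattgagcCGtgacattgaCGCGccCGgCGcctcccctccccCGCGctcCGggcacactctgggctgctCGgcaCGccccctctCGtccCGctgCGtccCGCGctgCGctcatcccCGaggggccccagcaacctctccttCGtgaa
The upstream Jmjd1c start held 47 CG dinucleotides in 300 bases and 78.0% G+C. The downstream one, 58662 bases further along the gene, held 13 and 48.3%. The Cdk6 start held 27, the Bcl2 start 44, the outermost Zeb2 start 9 and the innermost of its 4 starts, in the same region, 19, against a median of 7 over the 32851 promoters of the RefSeq table. Entries were found for 6 of the 8 genes, with 12 starts in all. Myc and Eya1 had no entry. In all, 3 motifs were searched on both strands: the E-box CACGTG, which MYC and its partners bind, was in 1 of the 12 windows (Cdk6) and in 7.15% of all promoters, TATAAA in 3 (Cdk6 and 2 starts of Mef2c) and 13.6%, and GGAAGT, a core of ETS-family sites, in 2 (the downstream start of Jmjd1c and the outermost of Mef2c) and 23.8%.

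By the way they were chosen, each of the 8 genes had at least 1 region. In macrophages given DMSO they differed widely in density. The region of Zeb2, a zinc-finger repressor, was the densest with 351 ± 30.2 reads per kb (SD, n = 3), 163rd of the 9514 coding genes that had a region. Jmjd1c, a member of the KDM3 family of JmjC proteins, had 241 ± 22.5 and the growth regulator Myc 239 ± 26.7, and the libraries of these 2 genes overlapped. Cdk6, a cell-cycle kinase, followed with 189 ± 18.2, Mef2c, a MADS-box transcription factor, with 139 ± 17.8, and Eya1, a transcriptional coactivator and phosphatase best known from organ development, with 87.4 ± 5.94. The survival gene Bcl2, with 65.4 ± 7.57, and Runx2, the transcription factor of bone formation, with 51.4 ± 12.8, overlapped each other and stood under the median of 108 for all genes with a region.

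**Figure D1:**
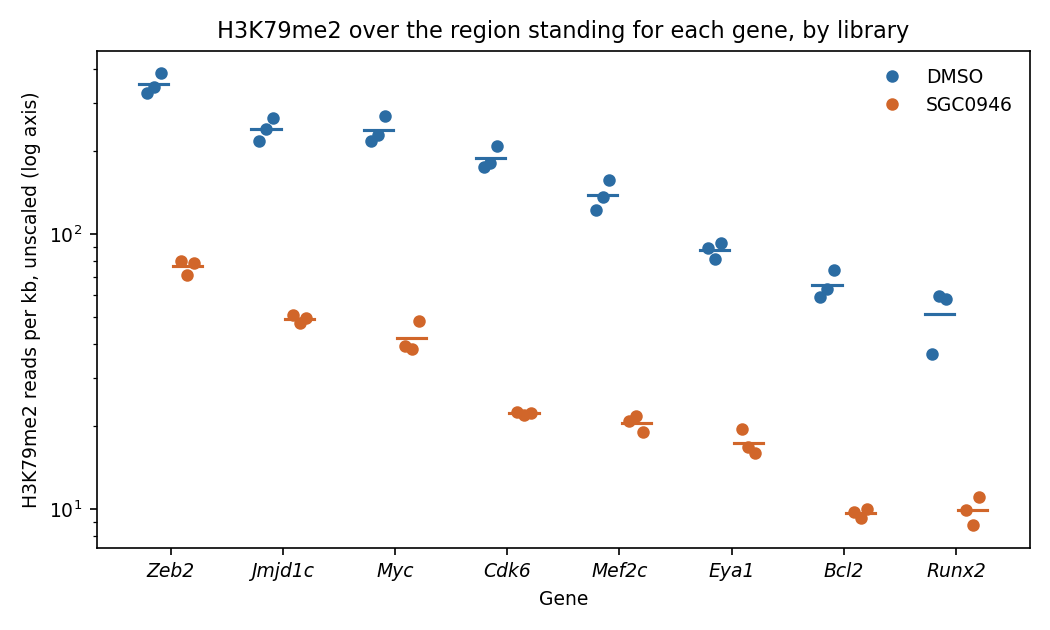
H3K79me2 reads per kb (unscaled, log axis) in the region standing for each gene, one point per library and a bar at the mean of the 3 libraries of a group. In all 8 genes the 3 SGC0946 libraries lie under the 3 DMSO libraries, from 76.5 against 351 reads per kb in Zeb2 to 9.90 against 51.4 in Runx2.

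The regions were long in some genes and fragmentary in others. Of the 69 regions, 9 measured 30 kb or more, a length reached by 2.18% of all regions, and they lay in Cdk6, Mef2c, Jmjd1c, Zeb2 and Eya1. The single Myc region (chromosome 15, 61985343 to 61990451) covered 99.96% of the gene's 5.02 kb span. Zeb2 (93.5% of its span covered, 5 regions), Cdk6 (89.7%, 9 regions) and Jmjd1c (87.9%, 9 regions) were marked nearly end to end, against a median of 33.0% and 2 regions for all coding genes with a region. Mef2c was covered to 53.0%, Eya1 to 26.6% and Bcl2 to 26.4%, the last in 24 regions, 10 of them 500 bp long. In Runx2, 7 short regions covered 2.37% of 319 kb. Exons and introns were not separated, since the annotation used here gives gene spans.

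**Figure D2:**
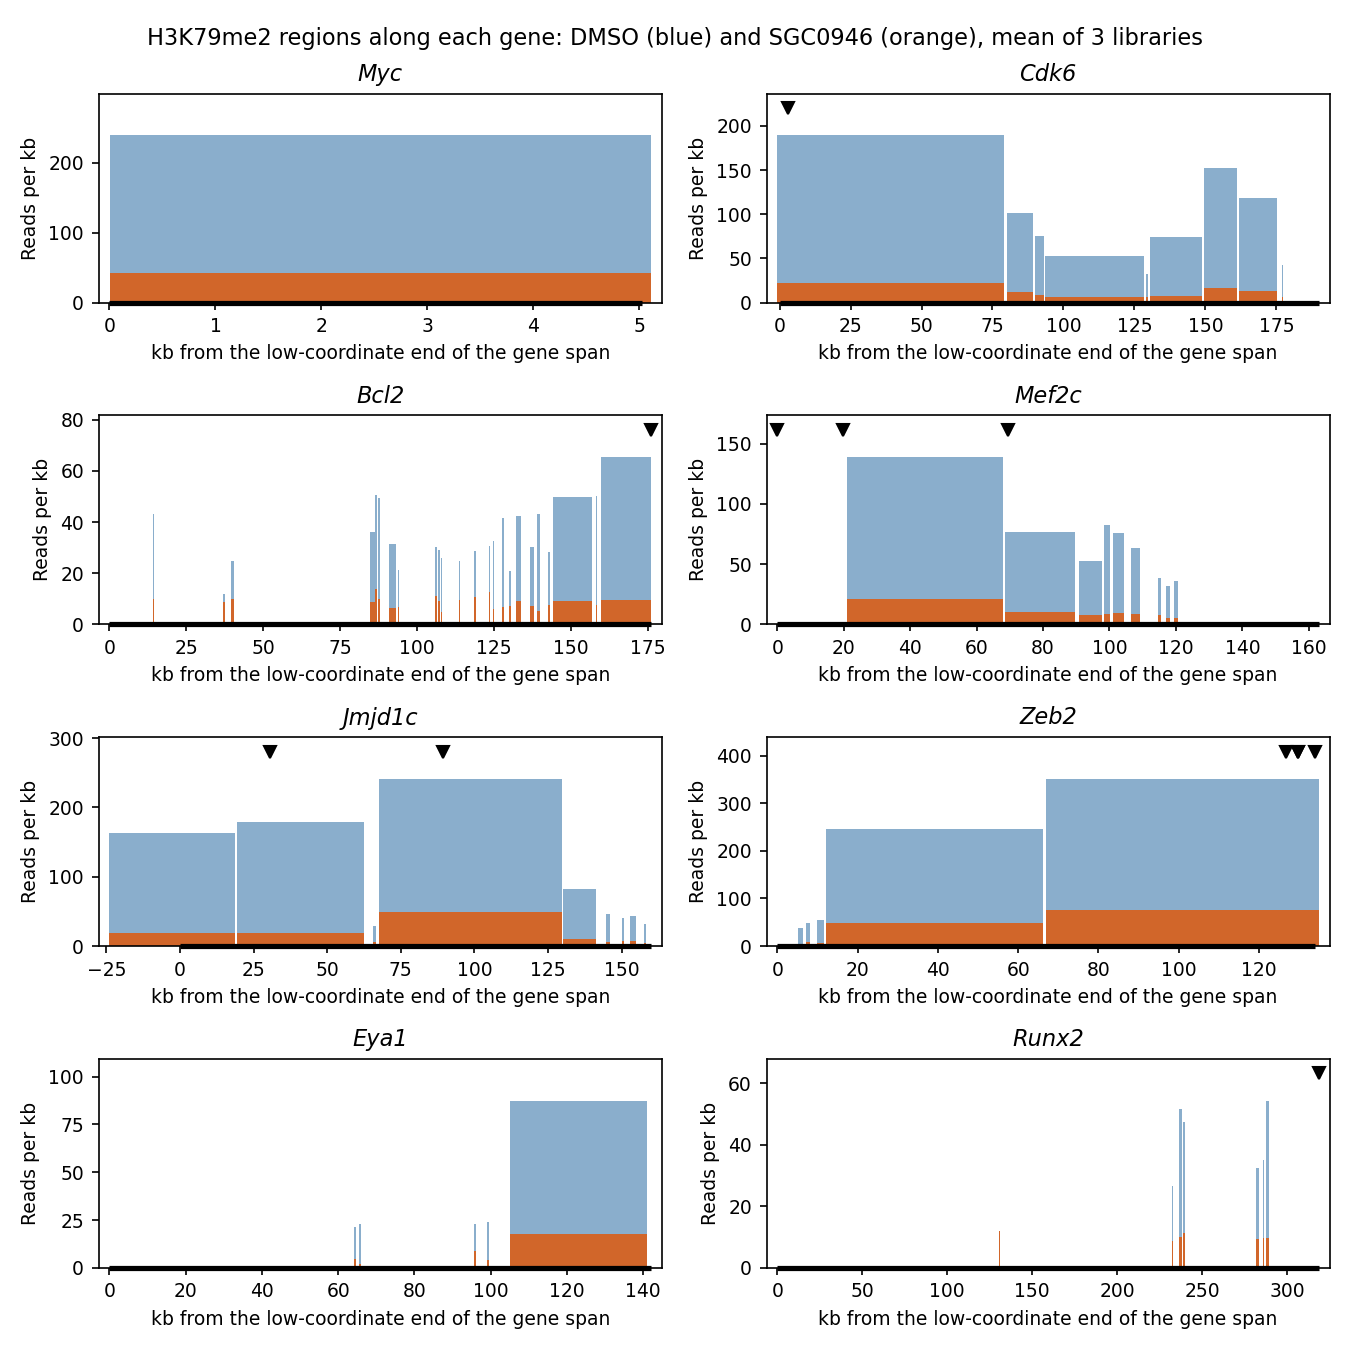
All 69 regions drawn to scale along the 8 genes, with the height giving mean reads per kb (unscaled, n = 3) in DMSO (blue) and SGC0946 (orange). The black line is the gene span and triangles are annotated starts where the RefSeq table has them. Zeb2, Cdk6 and Jmjd1c are filled with regions, and Runx2 has a few narrow ones.

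Fewer reads lay over each of the 8 genes with SGC0946. The unscaled test takes all libraries as equally deep, as labelled (nominal 40 M reads each). A difference in true depth was not tested. The unscaled counts of all 8 standing regions fell (edgeR quasi-likelihood test), by log2 -2.20 ± 0.10 (SE) in Zeb2 to -3.08 ± 0.10 in Cdk6, and the groups did not overlap in any of the 8. This is the general behaviour of the table, in which 99.7% of tested regions fell and 0.0201% rose, and in 92.4% of all regions the SGC0946 counts lay under all DMSO counts. Of the 69 regions 58 were tested on unscaled counts and all 58 fell. The 11 others had too few reads for the filter. Among them was a Runx2 region with a mean of 2 reads with DMSO and 6 with SGC0946. The 58 regions tested for share are not all the same ones.

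The cell-cycle and growth genes differed in what they kept. The first and longest Cdk6 region (chromosome 5, 3340217 to 3420033, 79.8 kb) held 14055, 14515 and 16771 reads with DMSO and 1807, 1755 and 1781 with SGC0946. It kept 11.8% of its DMSO count, the lowest fraction among the standing regions of the 8 genes, and its share fell by log2 -0.53 ± 0.038 (SE, edgeR adjusted p = 9.2e-20), with no overlap between groups in reads per M. Cdk6 was even along its length. Its 5 regions with a DMSO mean of at least 1389 reads kept 10.3 to 11.8%, although their DMSO density ranged from 53.2 to 189 reads per kb, and 7 of the 9 regions fell in share. Myc held 1117, 1175 and 1377 reads with DMSO and 200, 195 and 246 with SGC0946, and kept 17.5%. SGC0946 replicate 3 was the highest of its group, the groups overlapped in reads per M, and the share did not change by the test (log2 0.035 ± 0.075 SE, edgeR adjusted p = 0.799).

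Bcl2, which blocks apoptosis, had its largest region next to its start, with 46.7% of the gene's DMSO reads. Its standing region (chromosome 1, 106697878 to 106714211, 16.3 kb) ends 0.079 kb inside the annotated start, on the minus strand, and held 966, 1034 and 1206 reads with DMSO and 160, 151 and 164 with SGC0946. It kept 14.8%, and the groups were apart in reads per M, with a share lower by log2 -0.20 ± 0.079 (SE, edgeR adjusted p = 0.044). This call was lost with TMM factors (log2 -0.10, adjusted p = 0.447) and with DESeq2 size factors (-0.093, 0.510), without DMSO replicate 3 (adjusted p = 0.0967) and without SGC0946 replicate 1 or 2 (0.175 and 0.184). The log2 change over the sum of the gene's 24 regions was 0.10 (adjusted p = 0.109). The 23 sparser regions, with DMSO means of 6 to 632 reads, kept 12.3 to 72.2% each and 21.4% in sum. Of them 3 were called higher in share, and these 3 needed their SGC0946 libraries to pass the count filter. In the whole table, regions tested for share with a mean under 50 counts kept a median of 19.6% and those with at least 50 a median of 13.8%. The count filter works on reads per M, so fewer reads sufficed in SGC0946 libraries than in DMSO libraries. Regions of low count could therefore enter by their SGC0946 counts, which favours a high fraction kept. The difference of these medians cannot be separated from that selection.

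Among the lineage transcription factors, Zeb2 kept the most by its standing region. Its region over the starts (chromosome 2, 45050373 to 45118423, 68.1 kb) held 22178, 23324 and 26170 reads with DMSO and 5435, 4837 and 5351 with SGC0946, which is 21.8% kept. Its share rose by log2 0.35 ± 0.035 (SE, edgeR adjusted p = 2.7e-13) while its unscaled counts fell. With libraries scaled on the sparsest 25% of regions the log2 change was -0.32. The neighbouring region of 54.0 kb (chromosome 2, 44995663 to 45049619) held 12332, 13170 and 14426 against 2803, 2446 and 2526 reads, kept 19.5% and rose in share by log2 0.19 (adjusted p = 3.3e-05). Both regions stood apart between groups in reads per M. Zeb2os, a non-coding gene, and the microRNA gene Mir5129 lie in these regions, and the reads cannot be divided between them and Zeb2.

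By its region of highest mean count Mef2c stayed near the fall of the library. Its main region (chromosome 13, 83524846 to 83571998, 47.2 kb) held 5750, 6464 and 7422 reads with DMSO and 987, 1032 and 898 with SGC0946, kept 14.9% and fell in share by log2 -0.20 ± 0.046 (SE, edgeR adjusted p = 0.000337). That call was lost with TMM factors (log2 -0.096, adjusted p = 0.355) and with DESeq2 size factors (-0.089, 0.514). Of the 3 annotated starts of Mef2c, one lay inside a region, the second of the gene, and the outermost lay 20.8 kb before the first region. The first region had 139 DMSO reads per kb and the 8 others 31.7 to 82.6, and the 9 regions kept 10.4 to 20.9%. On library totals 4 of the 9 were called lower in share and 0 higher, against 23.3% and 6.16% of all regions tested. The sum of all Mef2c regions changed in share by log2 -0.24 (edgeR adjusted p = 0.00016).

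Eya1 and Runx2 are known from development rather than from macrophages. Eya1 had one broad region (chromosome 1, 14274122 to 14309963, 35.8 kb) with 3180, 2902 and 3320 reads in DMSO and 703, 602 and 573 in SGC0946. It kept 20.0% and rose in share by log2 0.22 ± 0.053 (SE, edgeR adjusted p = 0.00046), while its unscaled counts fell and the groups were apart on both scales. Scaling on the sparsest 25% of regions turned its log2 change to -0.47. Its 4 other regions were 500 bp each, had DMSO means of 10.7 to 12 reads and were not tested. The standing region of Runx2 (chromosome 17, 44732243 to 44733959, 1.72 kb) held 63, 102 and 100 reads with DMSO, the first library being low, and 17, 15 and 19 with SGC0946. It kept 19.2% and its share did not pass the test (log2 0.17 ± 0.24 SE, edgeR adjusted p = 0.676). The log2 change ran from 0.018 (without DMSO replicate 1, adjusted p = 0.961) to 0.32 (without DMSO replicate 2, 0.335). The 3 Runx2 regions nearest its start also lie in Supt3, which encodes a subunit of the SAGA coactivator complex, and cannot be credited to either gene. The longest region (log2 0.76, adjusted p = 0.0113) is one of these 3, and the sum over all 7 regions (log2 0.51, adjusted p = 0.000327) includes them. One Runx2 region (chromosome 17, 44626670 to 44627169) held 2, 0 and 4 reads with DMSO and 10, 5 and 3 with SGC0946. The groups overlapped in counts, and this region, called higher in share (log2 4.0 ± 0.75 SE, edgeR adjusted p = 1.0e-05), passed the count filter through its SGC0946 libraries alone, so that it had to differ. Regions of the table with under 15 DMSO reads per kb, picked for that low value, had 4.23 reads per kb with DMSO and 10.2 with SGC0946.

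**Figure D3:**
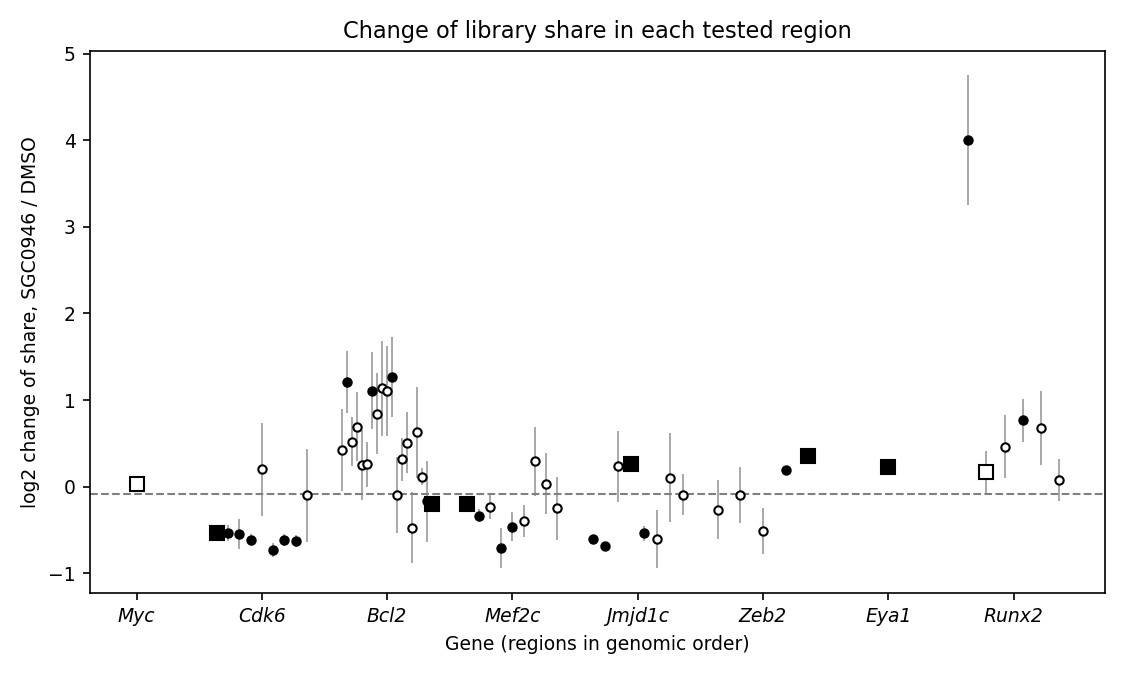
Log2 change of library share (SGC0946 over DMSO, ± SE) in the 58 tested regions, ordered along each gene. Squares stand for the gene, filled symbols passed adjusted p under 0.05, and the dashed line is the median of all tested regions at -0.087. The Cdk6 regions lie together at about -0.53 to -0.73 where filled, and the Jmjd1c regions split, with the square at 0.26 and the filled circles from -0.54 to -0.68.

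Jmjd1c had regions that differed from one another. Of these, 3 were broad. The first (chromosome 10, 67072444 to 67115134, 42.7 kb) lies to 44.0% in the span of Jmjd1c and also overlaps the neighbouring gene Reep3, which encodes a protein of the endoplasmic reticulum. It held 6652, 6559 and 7655 reads with DMSO and 819, 788 and 733 with SGC0946 and kept 11.2%. The second (67115904 to 67158850, 42.9 kb), which contains the upstream CG-rich start, held 7269, 7424 and 8381 reads against 819, 867 and 773 and kept 10.7%. The third of them (67164069 to 67225977, 61.9 kb), which contains the downstream start printed above and stood for the gene, held 13553, 14921 and 16335 reads against 3153, 2954 and 3057 and kept 20.5%. In share, the first and second fell by log2 -0.61 and -0.68 (edgeR adjusted p = 5.0e-19 and 2.5e-21) and the third rose by log2 0.26 ± 0.037 (SE, adjusted p = 1.5e-08), while the unscaled counts of all 3 fell. With libraries scaled on the sparsest 25% of regions the third had a log2 change of -0.42.

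A larger part of the Jmjd1c reads lay around its downstream start with SGC0946. The third broad region held 47.4, 49.7 and 48.6% of all Jmjd1c reads in the DMSO libraries and 63.8, 62.0 and 65.2% in the SGC0946 libraries, with no overlap (exact 2-sided permutation p = 0.1, the lowest value possible with 3 per group). Its ratio to the second region went from 1.94 ± 0.073 to 3.74 ± 0.291 (SD, n = 3). Neither ratio depends on the scaling between libraries. A within-gene test, which compares each region's fold change with that of all reads of its gene (edgeR diffSpliceDGE, adjusted over 17834 regions), placed the third broad region log2 0.39 ± 0.041 above the gene (SE, adjusted p = 3.2e-14) and the second 0.55 below it (log2 -0.55 ± 0.047, adjusted p = 3.9e-19). The first (log2 -0.48, adjusted p = 3.4e-15) and a region of 11.4 kb at the other side of the third (chromosome 10, 67226327 to 67237685, log2 -0.41, adjusted p = 0.00055) also lay below. Leaving out the region shared with Reep3 gave log2 0.28 (adjusted p = 8.8e-08) for the third and -0.67 (3.1e-24) for the second. Density differed as well, at 241 DMSO reads per kb in the third against 179 in the second and 163 in the first, and its part in the difference was not tested. Summed over its 9 regions the gene kept 15.6%, or 16.9% without the shared region, so that the change of share reads log2 0.26 from the standing region and -0.13 from the sum of all regions (adjusted p = 0.000867).

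**Figure D4:**
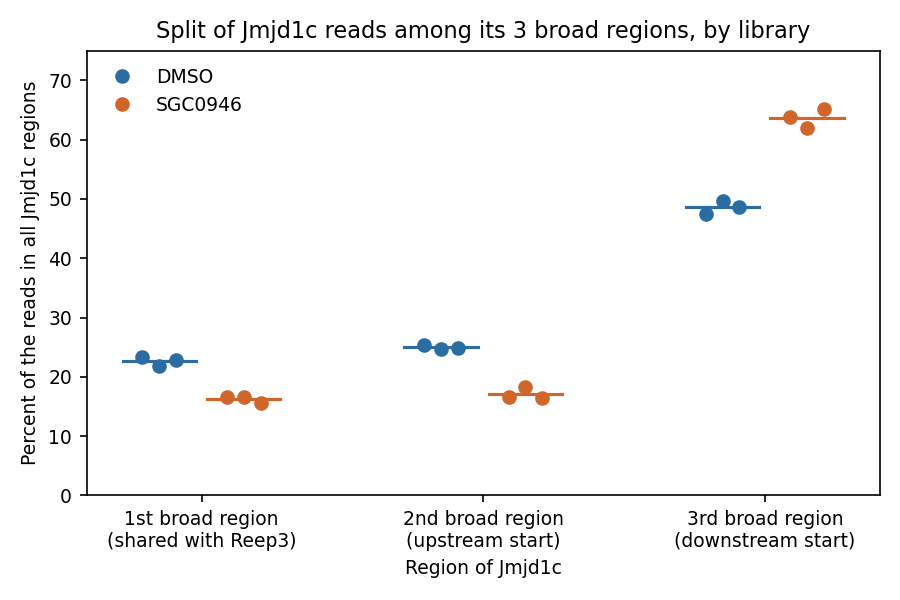
Reads in each of the 3 broad regions of Jmjd1c as a percentage of the reads in all its regions, one point per library and a bar at the mean of 3 libraries per group. The region with the downstream start goes from about 48.6% to 63.7% and the other regions from 22.6 and 25.0% to 16.2 and 17.1%.

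Within the other genes, differences between regions were fewer. Among all tested regions 5.17% differed from their gene, 2.77% upward and 2.4% downward. Of the 56 member regions tested 3 lay higher, 1 of them the Runx2 region that had to differ, and 5 lower, and 4 of these 8 were in Jmjd1c. The others were the standing region of Bcl2 (log2 -0.28, adjusted p = 0.0184), a Bcl2 region of 1.09 kb (39.5% kept, log2 1.13, adjusted p = 0.0316), a Zeb2 region of 1.77 kb with a DMSO mean of 97.3 reads (log2 -0.81, adjusted p = 0.0479) and the Runx2 region of 2 DMSO reads named above. When 1 library was left out, the call of the Bcl2 standing region held only without SGC0946 replicate 3, with adjusted p up to 0.321 (without DMSO replicate 3). It was also lost with a mean of at least 50 counts (log2 -0.13, adjusted p = 0.403). The call of the smaller Bcl2 region was lost without some single libraries (0.335 without SGC0946 replicate 1), and so was that of Zeb2 (0.369 without SGC0946 replicate 3). Equal library sizes gave adjusted p of 0.265, 0.0543 and 0.0979 for these regions, in this order. None of the 9 Cdk6 and 9 Mef2c regions passed this test.

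Set beside all genes, the 8 went both ways in share. By their standing regions Zeb2, Jmjd1c and Eya1 rose, Cdk6, Mef2c and Bcl2 fell, and Myc and Runx2 did not pass the test, whereas of 9089 coding genes tested 9.98% rose and 50.1% fell. Over regions, 9 of the 58 tested were called higher, among them the Runx2 region of 2 DMSO reads that had to differ, and 15 lower, against 6.16% and 23.3% of all regions tested (29.4% in either direction). Of the 9, 3 were small Bcl2 regions that did not pass the count filter by their DMSO libraries alone. The Bcl2 region at 106661521 to 106662020 (12, 15 and 19 reads with DMSO, 8, 6 and 5 with SGC0946) passed through its SGC0946 libraries alone. It could not come out lower in share. Rises made up 20.9% of all calls in share on library totals, 33.0% with TMM factors and 1.42% with scaling on the sparsest regions. The fraction kept varied with density over all genes. Genes with 100 to 200 DMSO reads per kb kept a median of 12.7%, those with 200 to 300 kept 15.8%, those above 300 kept 23.9%, those with 50 to 100 kept 13.8% and those below 50 kept 19.6%. Zeb2 (21.8%) and Cdk6 (11.8%) lay between the quartiles of their classes, as did Myc (17.5%) and Bcl2 (14.8%). Eya1 (20.0%) and Runx2 (19.2%) lay above the upper quartile of theirs, 15.7%, Jmjd1c (20.5%) above 19.5%, and Mef2c (14.9%) above 14.1%. Runx2, with 51.4 ± 12.8 DMSO reads per kb (SD), stands at the limit of 2 classes. Its 19.2% would lie between the quartiles of the class below 50 (16.4 and 25.0%). Genes of few reads in that class could pass the count filter by their SGC0946 counts, which favours a high fraction kept. No test of these placements was made. Among the genes most like a member in level over the 6 libraries (smallest distance in log2 reads per M and kb) were Bptf and Etv3 for Cdk6 (distance 0.065 and 0.093), Kat7 for Jmjd1c (0.091), Slk and Smg1 for Zeb2 (0.10 for both), Stil and Skil for Mef2c (0.11 and 0.14), Uchl3 and Klhl5 for Bcl2 (0.13 and 0.17), Arl6ip1 and Anxa5 for Myc (0.21 and 0.22), Ms4a6c and Pf4 for Eya1 (0.29 for both) and Arl10 and Flot1 for Runx2 (0.30 and 0.31).

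**Figure D5:**
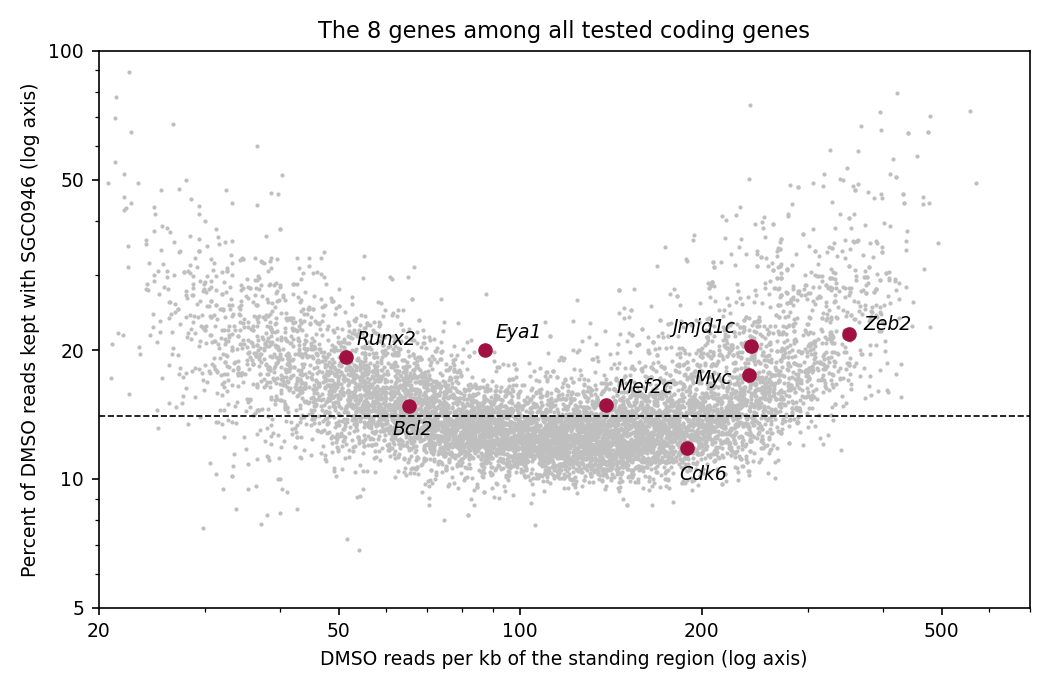
Percent of the DMSO reads kept with SGC0946 against DMSO reads per kb (both log axes) for the standing region of each tested coding gene, with the 8 genes in red. The dashed line is the median of all genes at 14.0%, 55 genes lie outside the axes, and Eya1 lies above most genes of its density at 20.0%.

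The other genes reported as DOT1L or KMT2A-fusion targets were mostly without a region, as were most coding genes, of which 43.4% (9514 of 21900) had one. Of 20 such genes 15 overlapped none, among them Hoxa3, Hoxa5, Hoxa6, Hoxa7, Hoxa9, Hoxa10, Meis1, Pbx3, Flt3, Six4, Mecom, Myb, Gfi1 and Prom1. Hoxa9 and its cofactor Meis1 are the targets best known from KMT2A-rearranged leukaemia. Of the 5 with a region, 1 rose in share, 3 fell and 1 did not pass, with a median log2 of -0.35 against -0.29 over all genes. Mbnl1, a splicing regulator, kept the most at 23.5% (42251 ± 3885 to 9912 ± 586 reads, SD, n = 3, share log2 0.46, edgeR adjusted p = 4.5e-20). Arid1b, a subunit of a chromatin-remodelling complex, kept the least at 10.96% (7512 ± 666 to 824 ± 61.8 reads, share log2 -0.64, adjusted p = 1.3e-18). Their unscaled counts both fell.

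Of 26 paralogs and direct partners of the 8 proteins 22 had a region, against 43.4% of all coding genes, and Mycn, Mycl, Mef2b and Zeb1 had none. In share 4 were called higher, 7 lower and 11 did not pass, with a median log2 of -0.078, against 9.98% higher, 50.1% lower and a median of -0.29 over all genes. One of the 4 was Eya2, which went from 1.67 reads to 7 and passed the count filter through its SGC0946 libraries, so that it had to differ. Max, the dimerization partner of MYC, kept the least at 10.6% (1894 ± 178 to 200 ± 5 reads, SD, n = 3, share log2 -0.69, edgeR adjusted p = 8.2e-14). Mcl1 and Bcl2l1, survival genes of the Bcl2 family, and the paralog Mef2a, named here for their values, kept 27.9%, 25.2% and 27.9% and rose in share by log2 0.71, 0.56 and 0.71, while their unscaled counts fell. Others of these families did otherwise. Bcl2l2, also a survival gene, kept 12.7% and fell in share by log2 -0.43 (adjusted p = 0.029), and the pro-apoptotic Bcl2l11 kept 11.8% and fell by log2 -0.53 (3.8e-10). Bax, Bak1 and Mef2d kept 18.7%, 14.9% and 16.7% and did not pass. Mcl1, Bcl2l1 and Mef2a had 265, 396 and 324 DMSO reads per kb, against 65.4 for Bcl2 and 139 for Mef2c, and no test between paralogs was made.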

How the data were processed

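H3K79me2 ChIP-seq was measured in 3 DMSO and 3 SGC0946 libraries. The authors deposited whole-number read counts for one shared set of regions on mm10, whose totals differ between libraries as raw counts do. Tools named in the submitters' processing notes, without roles, are bedtools 2.27.0, R 3.6.3, HOMER 4.11.1, ChIPseeker 1.20.0 and HISAT2. The calling of regions, counting of reads and treatment of duplicates are not given in the sources used here, and each could change the counts, as could any thinning of libraries. Starts were read as zero-based and are given 1-based.

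Regions were joined to RefSeq spans of GRCm38.p6. Counts of all regions passing filterByExpr entered the quasi-likelihood F test of edgeR 4.0.16 (R 4.3.3, Benjamini-Hochberg over all tested regions, threshold 0.05), with library totals as sizes (share) and with equal sizes (unscaled). Within-gene differences used diffSpliceDGE, with a member's regions grouped under the member. SE was derived from fold change and F. DESeq2 1.42.0 and other scalings, filters and left-out libraries were alternatives. The procedure was checked on simulated data. Pairs of libraries of 1 group differed by more than sampling noise (chi-square per degree of freedom 1.32 to 2.38). Likeness was the Euclidean distance of log2(CPM per kb + 0.1). Named genes were all members, the most and least kept gene of each list and the 2 nearest genes per member, except for items that are not reported here. Mcl1, Bcl2l1 and Mef2a were named after their values were seen. Members and lists were chosen with earlier results of these data known. Python 3.11.15 and matplotlib 3.10.9 were used.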

Additional observations from a re-analysis of the deposited data

How the results depend on the processing

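The unscaled falls of the 8 genes kept direction and call under all alternatives run, each of which took the libraries as equally deep. Shares depended on scaling, and the labels name no spike-in. With scaling on the sparsest 25% of regions, which moved the median log2 change of all tested regions from -0.087 to -0.82, the changes of Zeb2, Jmjd1c, Eya1, Runx2 and Myc turned to -0.32, -0.42, -0.47, -0.54 and -0.64. Of these Zeb2 and Jmjd1c did not pass (adjusted p = 0.184 and 0.0688), while Eya1 (0.0221), Runx2 (0.035) and Myc (0.000297) passed as lower. It left 0 member regions higher and 30 lower, and 195 and 13501 of all regions. The changes of Mef2c (-0.096, -0.089, -0.089) and Bcl2 (-0.10, -0.093, -0.090) no longer passed with TMM factors, size factors of DESeq2 and its Wald test, in this order. The Wald test left 9 member regions lower, called 2506 of all regions higher and 2831 lower, and 221 higher on unscaled counts. Rises were 20.9% of the calls on library totals, 33.0% and 33.3% with those factors, 47.0% by the Wald test and 1.42% with the sparsest regions. Summing all regions of a gene gave -0.13 for Jmjd1c, 0.10 for Bcl2 and 0.51 for Runx2, and the longest Runx2 region gave 0.76. Both Runx2 values passed the test and rest partly or wholly on regions shared with Supt3. Without a count filter 2784 regions were higher in share and 197 on unscaled counts. With a mean of at least 50 counts, which tests fewer regions, 808 regions and 4 member regions were higher in share, 0 higher and 11055 lower on unscaled counts, with 27 member regions lower, and within genes 255 regions and 1 member region lay higher. With equal library sizes the within-gene test called 247 regions higher and 263 lower, with 1 and 2 member regions, the 3 broad ones of Jmjd1c.

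The labels do not say what libraries with the same replicate number share. Correlations of same-numbered deviations were 0.0076, -0.11 and -0.0099. With 3 libraries per group they cannot settle whether the libraries are paired. With the replicate numbers as a block the change of Bcl2 was -0.20 (adjusted p = 0.0731), and the within-gene call of the Zeb2 region was lost (0.0546). With the block 8 member regions were higher and 14 lower in share, and 1414 and 5202 of all regions.

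Leaving out 1 library each, the change of Bcl2 ran from -0.25 to -0.18 and that of Myc from -0.098 (without SGC0946 replicate 3) to 0.10. Member regions higher in share ran from 5 to 9, and within genes from 1 to 3 higher and 3 to 4 lower. Over all regions, 918 to 2155 were higher in share, 5 to 9 higher on unscaled counts and 228 to 571 higher within genes. The share calls of Cdk6, Zeb2, Jmjd1c, Eya1 and Mef2c held without any one library. Leaving a library out also changed how many regions passed the count filter. The causes of these changes were not tested beyond the numbers of regions. Low counts limit the Runx2 and small Bcl2 regions.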
